A study of Mus musculus with 150 samples.

Results

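The late left flank of the Dppa domain is the 1190 kb of mouse chromosome 16 (chr16:47000000-48190130, mm10) that ends where an early replicating domain begins in mouse embryonic stem cells (mESC). That domain, taken here as chr16:48190131-48620367, holds Dppa4, a gene of pluripotent cells. The flank consists of all 239 positions that the chromosome 16 table of replication timing lists between these bounds, of 19641 positions in all, spaced 5 kb apart. It was split at 2 edit ends into a far segment of 143 positions (chr16:47000000-47712070), a middle segment of 38 positions (chr16:47712071-47900058) and a near segment of 58 positions (chr16:47900059-48190130). The position bounds alone chose the members, and no measured value was used.

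Mammalian chromosomes replicate in domains that each take a characteristic time in S phase. Early domains are joined to late ones by timing transition regions, in which the replication time changes steadily over a long stretch. The Dppa domain is known to replicate early in pluripotent cells and late after neural differentiation, when its genes are silenced.

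The study labelled replicating DNA with BrdU, sorted cells into an early and a late S-phase fraction and sequenced the labelled DNA of each (Repli-seq). Each pair of fractions gives 1 timing profile per allele. The score is read here as higher for earlier replication. How the score was computed and smoothed, and its log base, are not given in the sources. Differences are therefore in units of the score.

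The cells carried CRISPR deletions (del) or inversions (inv). In the hybrid line cas/129, which carries chromosomes of 2 origins, reads had been assigned to a svim or a cast allele, and 43 clones of 26 genotypes were profiled. No unedited cas/129 sample is among those analysed here, so 5 clones whose edits do not touch the flank served for comparison. These were 30kdel B11 and 30kdel C2 (chr16:48665576-48695490 deleted, right of the domain), 29kdel D8 (chr16:48235963-48264883), 14kdel D11 (chr16:48264884-48280115) and 24.5kinv 3 (chr16:48311882-48336437 inverted). Every one of them therefore carries an edit, 3 of them inside the domain. The non-hybrid lines comprised unedited 46C and 13 edited profiles of 11 genotypes, with the alleles not separated. These were labelled homozygous except 500kdel, labelled heterozygous. Another background, v6.5, gave 3 clones with svim and C57BL alleles, and 1 profile was titled NPC, the usual abbreviation for neural progenitor cells, although its cell type label reads mESC. The labels do not say which allele of a hybrid clone was edited. Of 35 hybrid clones whose deletion holds at least 1 measured position, 32 had blank values there on svim only, 680kdel 79 on cast only, and the 2 clones of a.del, with 1 position in the deletion, on neither. The 46C cells grew with serum and LIF and the hybrids with 2i and LIF, so differences between the backgrounds cannot be told apart from the medium.

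Edits with an end in the flank or at its right edge were as follows. The deletion 350kdel and the inversion 350kinv span chr16:47900059-48235964, so the whole near segment and the domain's left end. The non-hybrid 435kdel spans chr16:47900059-48336419, and 435kdel B8 and 435kinv in hybrid cells span chr16:47900079-48336437. The non-hybrid 680kdel and the hybrid 680kinv span chr16:47900059-48581356, which takes in most of the domain, and 680kdel 79 spans chr16:47900079-48581357. The deletion 500kdel spans chr16:47712071-48235964 and so takes in the middle and near segments. At the domain's left end lie 45kdel and 45kinv (chr16:48190131-48235964), 2kdel (chr16:48234325-48235964), and 145kdel and 145k.30kdel (chr16:48190129-48336437, the latter also with the 30kdel interval). Within the domain, interval a is chr16:48308399-48311882, interval b is chr16:48396806-48437301 and interval c is chr16:48581359-48620367. Clones abc.del, ab.del and ac.del lack the intervals that their names give.

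The files hold no read counts, so the depth behind each score is unknown. Each of the 123 columns used, of 129 in the table, had the same interquartile range over the chromosome. Their medians ran from -2.17 to -0.29, so the columns share a spread but not a centre. Scores and crossings of 0 are given without correction for this unless a rescaled or centred value is named. Repeat libraries of a clone were averaged. Over 7 cas/129 clones with 2 libraries, their SD was 0.16 in the far, 0.28 in the middle and 0.46 in the near segment on svim, and 0.24, 0.49 and 0.33 on cast. The largest gap, 1.40 in the near segment on svim, was between the libraries of 28.5kdel A10. A lone clone in the near segment is therefore known less well than its decimals imply. Clones of a genotype are taken as separate replicates, as their labels name them separately. The p-values rest on the spread between clones, which limma also draws towards the spread of all windows. Where a hybrid genotype has 1 clone, that spread comes from the comparison clones alone, which carry different edits.

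The flank holds few genes. RefSeq lists 8, of which 5 are pseudogenes. The far segment holds the pseudogenes Gm6912, Gm18169 and Gm6914 and the small nuclear RNA Gm24651, and the middle segment holds no annotated gene. The near segment holds the predicted protein-coding gene Gm52257 (chr16:48057639-48062027), the pseudogenes Gm7275 and Gm17804, and the long noncoding RNA 6430553K19Rik (chr16:48122074-48158499), which ends 32 kb short of the domain. The nearest protein-coding genes outside are Nectin3 (chr16:46387665-46498535), which encodes a cell adhesion protein, and Dppa4 (chr16:48283735-48294292).

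The promoters of the 2 near-segment genes with an entry in the RefSeq promoter table (GRCm38.p6) are shown because both lie in 50 kb windows that became later in ab.del and abc.del. Each is printed 5′ to 3′ on the gene's strand, from 250 bases before to 50 after the start, with CpG dinucleotides in capitals.
Gm52257, chr16:48057389-48057688, plus strand: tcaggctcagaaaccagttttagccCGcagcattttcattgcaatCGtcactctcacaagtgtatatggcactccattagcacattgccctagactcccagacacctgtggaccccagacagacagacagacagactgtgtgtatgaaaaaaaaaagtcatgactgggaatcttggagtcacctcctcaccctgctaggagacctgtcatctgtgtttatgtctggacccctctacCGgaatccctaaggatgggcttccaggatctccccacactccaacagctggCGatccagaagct
6430553K19Rik, chr16:48158450-48158749, minus strand: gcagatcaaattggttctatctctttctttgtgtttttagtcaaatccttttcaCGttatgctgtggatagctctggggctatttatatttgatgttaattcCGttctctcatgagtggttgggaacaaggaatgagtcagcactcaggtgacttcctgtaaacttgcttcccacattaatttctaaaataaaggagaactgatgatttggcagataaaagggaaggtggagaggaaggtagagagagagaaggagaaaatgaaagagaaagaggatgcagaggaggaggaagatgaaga
The Gm52257 promoter had 50.3% GC and 4 CpG dinucleotides, and that of 6430553K19Rik had 40.0% GC and 2. Over all 1078 promoters of chromosome 16 in the table, the median was 51.7% GC and 6 CpG dinucleotides. No expression was measured here.

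In the comparison clones the flank was late over most of its length and rose only at its right end. The far segment averaged -2.69 ± 0.21 (SD, n = 5) on svim and -2.69 ± 0.29 on cast. The middle segment averaged -2.48 ± 0.70 on svim and -2.07 ± 0.81 on cast. The near segment averaged -0.66 ± 0.67 on svim and 0.15 ± 0.33 on cast, against 2.06 ± 0.45 and 2.54 ± 0.53 in the domain itself. So the label of a late flank holds for the far and middle segments, and the near segment is the rise.

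Read in 50 kb windows on svim, the mean stayed between -2.48 and -2.82 from the left end of the flank to the window from 47700001. It then went through -2.44 in the window from 47800001, -1.79 from 47900001, -1.01 from 48000001 and 0.22 from 48100001 to 0.88 in the window that meets the domain. On cast the same windows gave -1.97, -1.18, -0.16, 1.16 and 1.69. The cast rise thus ran ahead of the svim rise by 0.62 to 0.94 of a score unit from 47900001 on.

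The near segment showed this order clone by clone. On svim it scored -1.59 in 14kdel D11, -0.84 in 29kdel D8, -0.78 in 30kdel B11, -0.31 in 30kdel C2 and 0.22 in 24.5kinv 3. On cast the same clones scored -0.13, -0.01, -0.10, 0.53 and 0.48. In each of the 5 clones cast was the earlier allele, by a mean of 0.81 ± 0.43. The 24.5kinv 3 clone was also the earliest in the middle segment on either allele, at -1.43 on svim and -0.90 on cast. In 14kdel D11, 29kdel D8, 30kdel B11 and 30kdel C2 the deleted positions are blank on svim and filled on cast. The inverted allele of 24.5kinv 3 is not labelled. In the gap between the alleles of these clones, the origin of the allele and the edit can therefore not be told apart.

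The place where the rise crosses 0 was taken as the first position, going left from the domain, from which 5 positions in a row score below 0. It lay 40 to 220 kb left of the domain on svim (mean 107 ± 68 kb, n = 5) and 120 to 200 kb left of it on cast (154 ± 38 kb). Over the near segment the least squares slope was 1.07 ± 0.35 score units per 100 kb on svim and 1.18 ± 0.29 on cast. In 24.5kinv 3 the svim slope was 0.46, against 1.18 to 1.31 in the other 4 clones.

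Unedited 46C scored -3.27 in the far, -3.11 in the middle and -0.45 in the near segment and 2.18 in the domain. It crossed 0 at 120 kb from the domain, with a slope of 1.42 per 100 kb. Its rise was confined to a shorter stretch than in the mean of the comparison clones. The window from 47850001 still scored -2.98, that from 47950001 scored -1.32 and that from 48050001 scored 0.06. Comparison clone 14kdel D11 had a similar rise on cast, with -2.63, -1.19 and 0.27 in these windows and a slope of 1.52.

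**Figure D1:**
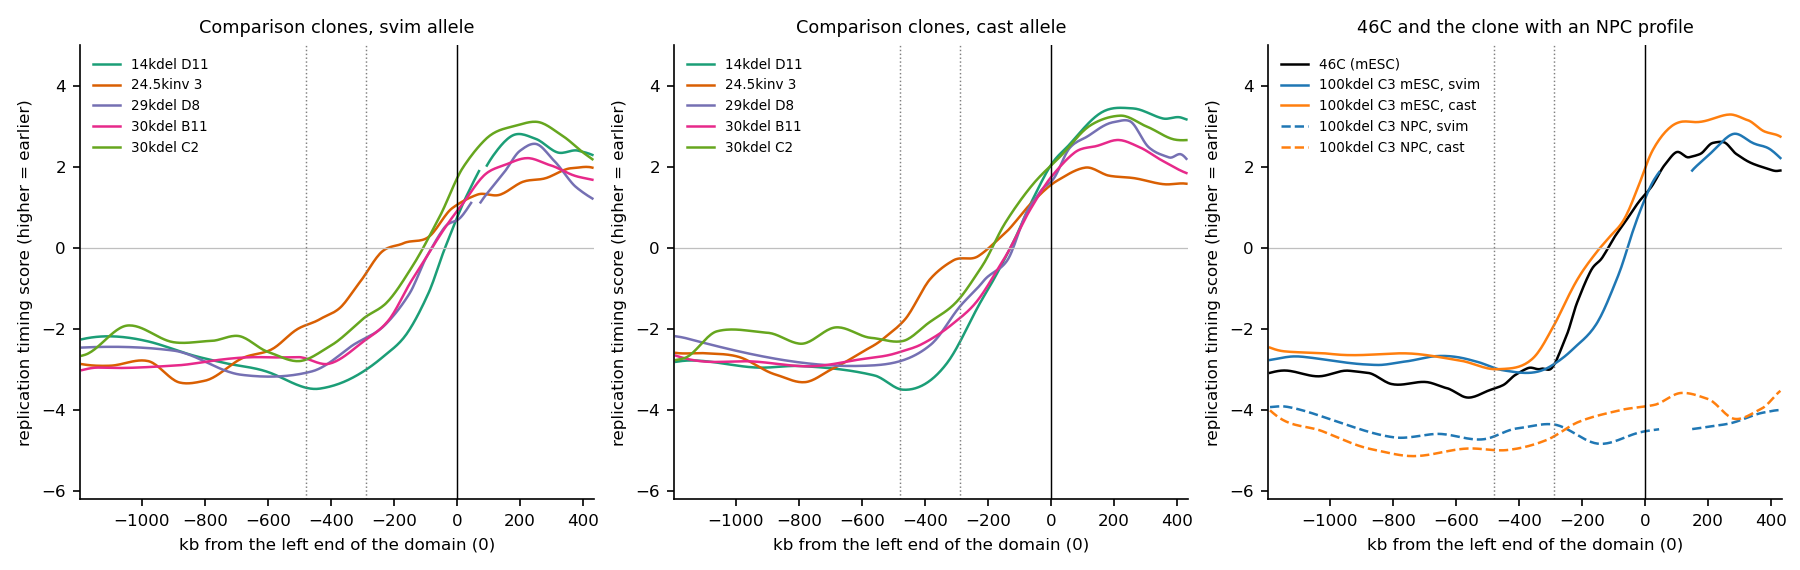
Replication timing score against distance in kb from the left end of the domain (solid vertical line) for the 5 comparison clones on svim (left) and cast (middle), and for 46C and the mESC and NPC profiles of 100kdel C3 (right). Dotted lines mark the ends of the far and middle segments; far-segment means are -2.69 in the comparison clones on either allele, 24.5kinv 3 lies above the other 4 in the middle segment, and every flank position of the NPC lines is at -3.91 or lower.

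Deletions that joined the domain to sequence further left came with an early stretch in what remained of the flank. In 350kdel, which removes the near segment, the middle segment scored 0.09, against -3.11 in 46C (difference 3.21 ± 0.63, standard error). In the non-hybrid 435kdel it scored -0.56 (difference 2.56 ± 0.63). In 500kdel, which removes the middle segment too, the far segment scored -1.80, against -3.27 in 46C (difference 1.47 ± 0.46).

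These 3 differences did not pass limma's test, at adjusted p = 0.82 for 350kdel, 0.9991 for 435kdel and 0.38 for 500kdel. Each genotype is 1 profile against 1 profile of 46C, and the joint fit takes its spread from the 2 pairs of clones of 245kdel and 680kdel, so it has 2 residual degrees of freedom. In 50 kb windows, 2 flank windows of 500kdel were called earlier, at 47600001 to 47650000 (0.38 against -3.68, adjusted p = 0.038, limma) and at 47650001 to 47700000 (1.25 against -3.58, adjusted p = 0.038). They touch the edit end at 47712071. Over the whole chromosome 0.106% of windows were called earlier in 500kdel, and these 2 windows were all of them.

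How far left each deletion went was read against 8 non-hybrid profiles with no edit end left of the domain (46C, 2kdel, 45kdel, 45kinv, 100kdel, 245kdel 25, 245kdel 28 and 345kdel). In 350kdel the unbroken run of windows above all 8 began at 47500001, 400 kb left of the edit end, and went from 0.84 in the window beside the edit to -2.60 in its last. The run of the non-hybrid 435kdel began at 47550001, 350 kb from its end, and went from 0.34 to -3.01. The run of 500kdel began at 47300001, 412 kb from its own end, and went from 1.25 to -2.70. Over all windows of the chromosome, 350kdel lay above all 8 profiles in 4.88%, 435kdel in 9.54% and 500kdel in 16.2%. At the left end of the flank the 3 profiles were as late as 46C or later, at -3.85, -3.74 and -3.07 in the flank's leftmost window against -3.04.

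The distance over which the score decayed can be counted from each junction. The deletions 350kdel and 500kdel end at the same base on the right, 48235964, and keep the same part of the domain. Leftwards from the junction, 350kdel crossed 0 after 100 kb and 500kdel after 107 kb. In 46C the crossing lay 166 kb left of that base. The non-hybrid 435kdel, which removes the domain up to 48336419, crossed after 50 kb, against 266 kb from that base in 46C. These distances are single values with no test.

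In hybrid cells the same pattern was seen on the allele that is blank over the deletion. In 435kdel B8 the svim column has no values in the near segment, and its middle segment scored -0.08, against a range of -3.33 to -1.43 in the comparison clones (difference 2.40 ± 0.65, adjusted p = 0.9998, limma). On cast the same clone scored -1.64 in the middle and 0.62 in the near segment, with comparison means of -2.07 and 0.15. On svim an unbroken run of windows above all 5 comparison clones began at 47550001, 350 kb left of the edit end, and 10 of its 18 remaining flank windows lay above them, against 10.5% of windows over the chromosome. It crossed 0 after 85 kb from the junction. Without 24.5kinv 3 among the comparison clones the middle difference was 2.66 and was called (adjusted p = 2.86e-04, limma), with 1 clone against 4. Leaving out any of the other 4 gave no call (adjusted p = 0.33 to 0.9999).

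With most of the domain removed as well, the remaining flank scored lower than in 350kdel and 435kdel, a difference that was not tested. In 680kdel 13 and 680kdel 16 the middle segment scored -2.04 and -2.53 (mean difference from 46C 0.83 ± 0.55, adjusted p = 0.67, limma), and the remaining part of the domain scored -1.50 and -1.63. Beside the edit, in the window from 47850001, they scored -1.63 and -2.01, and the highest flank position of either was -1.47. In 680kdel 13 the run of windows above all 8 reference profiles began at 47550001. In 680kdel 16 the window next to the edit was not above them, though 5 flank windows were. Over the chromosome these 2 profiles lay above the 8 in 17.5% and 15.4% of windows. In clone 680kdel 79, whose cast column is blank over the deletion, the middle segment scored -1.22 on cast and -2.07 on svim. On cast 1 of its 18 flank windows lay above all 5 comparison clones, against 19.8% over the chromosome.

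The 500kdel profile has no values at any of the 96 positions of the middle and near segments. The label calls this deletion heterozygous, whereas the homozygous deletions are blank in the same way. Whether both copies were deleted was not tested.

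**Figure D2:**
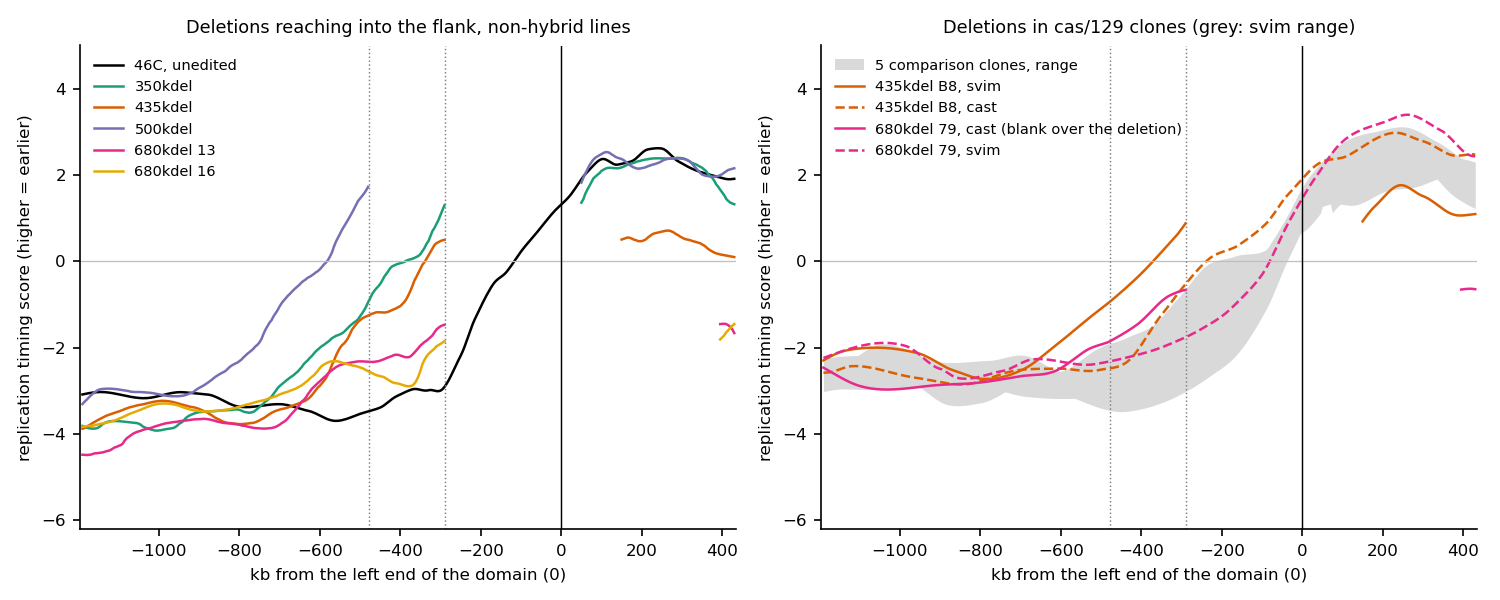
Replication timing score against distance in kb from the left end of the domain for deletions that reach into the flank, in non-hybrid lines with 46C (left) and in hybrid clones by allele with the svim range of the 5 comparison clones in grey (right). Lines break over the deleted positions; 350kdel, 435kdel and 500kdel slope from above 0 at the edit end down to late scores, and the non-hybrid 680kdel lines stay below 0.

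Inversions were read first as deposited, with scores placed by mm10 position. Whether the columns of inverted alleles keep the reference order or follow the rearranged chromosome is not stated in the labels or the file, which leaves the middle and far segments untouched but decides which sequence a near-segment score belongs to. In 350kinv, which turns the near segment together with the first 45.8 kb of the domain, the profile as deposited stayed close to 46C. Its far, middle and near segments scored -3.47, -3.07 and -0.23, against -3.27, -3.11 and -0.45. It crossed 0 at 115 kb, 46C at 120 kb. With positions inside the inversion mirrored, its near segment scored 0.25 and its slope was -1.24 per 100 kb, against 1.12 as deposited. None of its 24 flank windows lay above the 8 reference profiles, against 5.55% over the chromosome. The 45kinv profile, with only the domain's left end turned, scored -2.36 in the middle and 0.46 in the near segment and crossed at 190 kb. Its 2 libraries differed by 1.03 in the middle segment, more than its distance of 0.76 from 46C.

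In 435kinv C5, with the right end at 48336437, the svim allele was early across the edit end. Its middle segment scored 0.05 on svim, above all 5 comparison clones, and -2.34 on cast, within their range. The svim difference was 2.53 ± 0.65 (adjusted p = 0.86, limma), and without 24.5kinv 3 it was 2.79 and was called (adjusted p = 5.91e-05). Leaving out any of the other 4 comparison clones gave no call (adjusted p = 0.11 to 0.9999, limma). On svim the unbroken run of windows above the comparison clones began at 47500001, 400 kb left of the edit end, and 11 of 24 flank windows lay above them, against 2.05% over the chromosome.

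The near segment of this svim allele ran the other way. As deposited, its score went down from 0.84 in the window from 47900001 through 0.38 from 48000001 to -0.47 beside the domain, a slope of -0.57 per 100 kb, while on cast the slope was 1.09. In the inverted chromosome the left part of the domain adjoins the middle segment, and the left end of the near segment adjoins the rest of the domain. Read in the rearranged order, with positions inside the inversion mirrored, the near segment scored -0.13 instead of 0.20 and its slope was -0.10.

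The 3 clones of 680kinv each had 1 early and 1 late allele in the flank. In 680kinv B10 the svim allele scored 0.16 in the middle and 2.55 in the near segment, and the cast allele -1.44 and 0.20. In 680kinv C5 the svim allele scored -0.71 and 1.74, and the cast allele -2.21 and -0.02. In 680kinv 80 the order was turned, with -0.38 and 2.34 on cast and -3.38 and -1.73 on svim.

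The early allele of each clone was also the one with a low score in the domain, at 0.62 in B10, 0.58 in C5 and 0.55 in clone 80, against 3.49, 2.80 and 1.66 on the other allele. As deposited, the early peak sat in the near segment, with windows of up to 3.18, 2.06 and 2.85. Read in the rearranged order, the same columns gave near segments of -0.01, 0.26 and 0.27 and domains of 2.35, 1.58 and 1.95, so the near-segment values depend on the order. The middle segment, outside the inversion, is the same in either reading. Since the labels do not name the inverted allele, each allele was tested with all 3 clones, and neither passed limma's test in the middle segment (svim 1.17 ± 0.61, adjusted p = 0.84; cast 0.73 ± 0.50, adjusted p = 0.98).

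The size of the difference between alleles, whichever was earlier, is given as a description with no test, since it was looked at after the values were seen. In the middle segment, outside the inversion, it was 2.03 in 680kinv against 0.41 in the comparison clones. In the near segment it was 2.35 in B10, 1.76 in C5 and 4.07 in clone 80 as deposited. With the allele that is early in the middle segment read in the rearranged order, the near values were 0.21, 0.28 and 2.00, so they depend on the order.

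The reach of the early allele was 350 kb left of the edit end in B10 (to 47550001), 200 kb in C5 (to 47700001) and 250 kb in clone 80 (to 47650001), read as unbroken windows above the same allele of all 5 comparison clones. On these alleles 13, 11 and 11 of 24 flank windows lay above them. Over the chromosome the shares were 36% on svim in B10, 5.74% on svim in C5 and 19.1% on cast in clone 80, so B10 stood above the comparison clones in many other places as well. At the far left of the flank the 3 early alleles were late, with far segments of -2.55, -2.73 and -3.00.

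**Figure D3:**
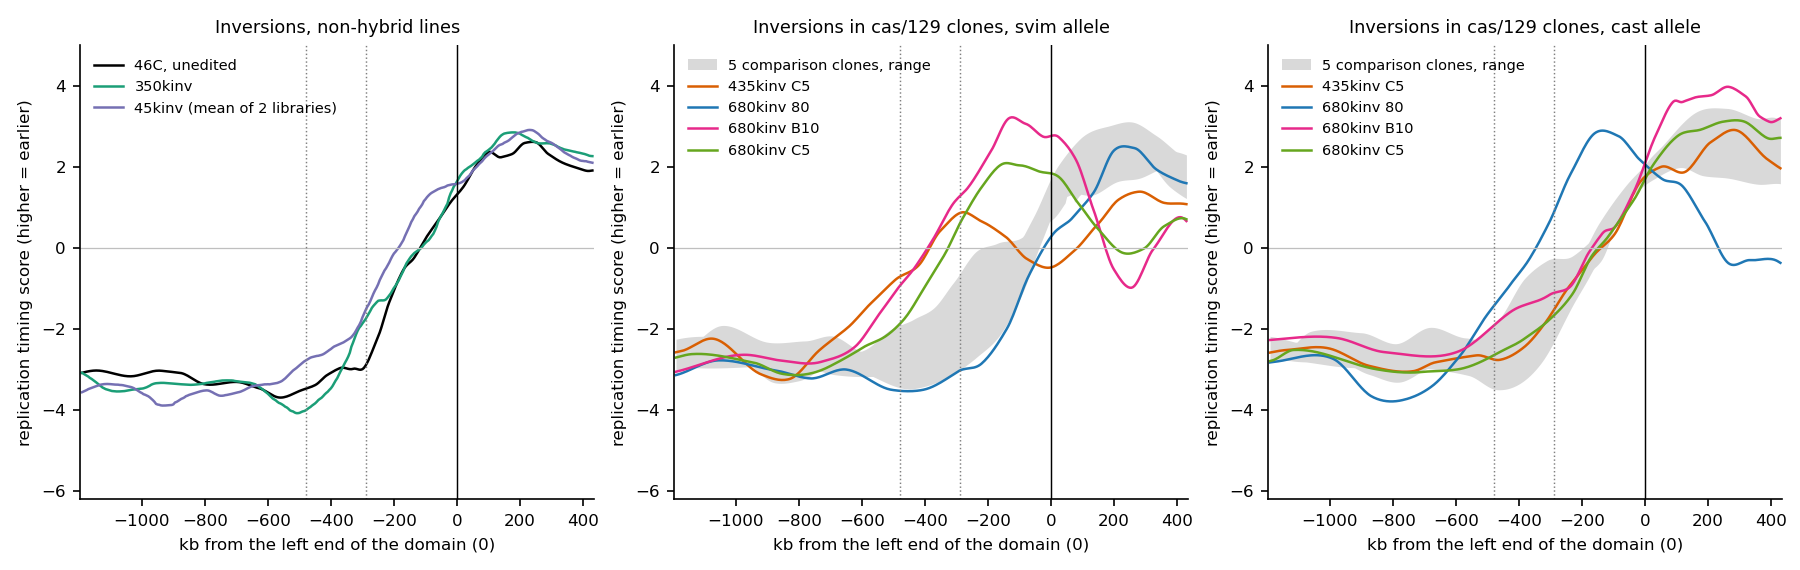
Replication timing score against distance in kb from the left end of the domain, as deposited, for 350kinv and 45kinv with 46C (left) and for 435kinv C5 and the 3 clones of 680kinv on svim (middle) and cast (right), with the range of the 5 comparison clones in grey. In B10 and C5 the svim line, and in clone 80 the cast line, peak left of the domain at 2.06 to 3.18 in 50 kb windows and lie low within it.

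Deletions of the domain's left end left the flank close to its comparison. In 45kdel the middle and near segments scored -2.38 and -0.07, and in 2kdel -2.57 and -0.15, against -3.11 and -0.45 in 46C. Both crossed 0 at 150 kb. In 145kdel G5 the near segment scored -0.60 on svim and 0.31 on cast. The 2 clones of 145k.30kdel scored -0.97 and -1.30 on svim and -0.05 and -0.15 on cast (svim difference -0.48 ± 0.45, limma, not called). These svim values all lie within the range of the comparison clones.

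Deleting interval a together with b, with c or with both came with a later right end of the flank on svim. On svim the near segment scored -3.01 and -2.87 in ab.del D10 and D12, -2.61 and -2.32 in abc.del A6 and E2, and -2.07 and -2.53 in ac.del E4 and H8. All 6 lay below the lowest comparison clone, 14kdel D11 at -1.59. On cast the same clones scored from -0.20 to 0.49, which overlaps the comparison range of -0.13 to 0.53. Low svim scores were not particular to these 6: a.del G5 scored -2.63, and 4kdel C6 and G4 -2.12 and -2.14. Unbroken runs of windows below all 5 comparison clones reached 190 to 290 kb left of the domain in the 6 clones. In 4kdel C6 and G4 they reached 340 and 290 kb. Over the chromosome 3.64% to 23.4% of windows lay below in the 6, and 17.9% and 7.58% in 4kdel C6 and G4.

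In ab.del the svim near segment fell by 2.28 ± 0.45 and was called (adjusted p = 0.0315, limma). In abc.del the difference was -1.81 ± 0.45 (adjusted p = 0.18) and in ac.del -1.64 ± 0.47 (adjusted p = 0.35). Over the 3 segments and all genotypes tested, this was the only segment called on any allele. Without 14kdel D11 the near segment was called in abc.del too (difference -2.04, adjusted p = 0.0074) and in ac.del (-1.87, adjusted p = 0.0109). Without 24.5kinv 3 it was called in abc.del (-1.58, adjusted p = 0.015). The ab.del call was lost without 30kdel B11 (adjusted p = 0.0846), without 30kdel C2 (0.17), without D10 (0.65) and without D12 (0.32). It was also lost when columns were rescaled outside the region (-1.82, adjusted p = 0.30) and when they were centred left of the flank (-1.75, adjusted p = 0.38).

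In windows the loss of earliness was largest beside the domain and decayed leftwards. In ab.del the mean svim difference was -3.63 ± 0.37 in the window that meets the domain (adjusted p = 2.02e-04, limma), -3.15 in the next and -2.55 in the third, which begins at 48050001. In abc.del the same windows fell by 3.54, 2.82 and 2.07 (adjusted p = 4.72e-05 to 0.0473). In ac.del 2 windows were called, down to 48100001, with -2.69 and -2.42. These 2 calls fell to 0 when columns were rescaled outside the region and to 0 without H8. Over the whole chromosome 0.685% of windows were called later in ab.del, 0.738% in abc.del and 0.686% in ac.del. The reach of the called run was thus 140 kb left of the domain in ab.del and abc.del and 90 kb in ac.del. The other 51 comparisons, all those on cast included, had no called flank window, and 0.00518% of their windows were called anywhere.

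The promoters printed above lie in these windows. In the window of the Gm52257 promoter, from 48050001, the mean svim score was -3.00 in ab.del and -2.52 in abc.del, against -0.45 in the comparison clones. In the window of the 6430553K19Rik promoter, from 48150001, it was -2.75 and -2.66, against 0.88.

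With the rise gone, the svim flank of abc.del was flat. Its near segment slope was -0.03 and -0.29 per 100 kb in A6 and E2, and in ab.del D10 and D12 -0.10 and 0.20, against 0.46 to 1.31 in the comparison clones. In ac.del E4 and H8 it was 0.38 and 0.02. The domain itself scored -2.75 and -2.86 in abc.del, -1.09 and -0.85 in ab.del, and -0.04 and -1.61 in ac.del on svim. In ab.del and ac.del the domain lay above its own near segment by 0.93 to 2.03, whereas in abc.del the domain minus the near segment was -0.13 in A6 and -0.54 in E2. In the middle and far segments the svim differences of the 3 genotypes lay between -0.61 and 0.04, and none was called.

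Other combinations of the intervals were removed in b.del, bc.del, c.del and a.del, and no flank segment or window was called in them. In b.del the svim near segment scored -0.99 and -1.06, in bc.del -0.61 and -0.95, and in c.del from -1.90 to -0.86 over 4 clones. In a.del clone 53 scored -1.09 and clone G5 -2.63. On cast, c.del was split, with -0.16 in A12, -0.03 in B11, -1.13 in C6 and -1.81 in C9, and both a.del clones lay below the comparison range, at -1.60 and -0.85. The cast difference was -1.38 ± 0.40 in a.del (adjusted p = 0.40, limma) and -0.93 ± 0.37 in c.del (not called). The a.del value was -0.70 when columns were rescaled outside the region, -0.65 under quantile normalization and -0.50 when they were centred left of the flank, and its far segment lay lower too, by -0.71. In all 4 clones of c.del the deleted positions are blank on svim and filled on cast. In a.del neither allele is blank at its 1 deleted position. In ab.del and ac.del 8 of 9 deleted positions are blank on svim, and in abc.del 16 of 17. A filled position therefore does not tell which allele of a.del was edited.

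**Figure D4:**
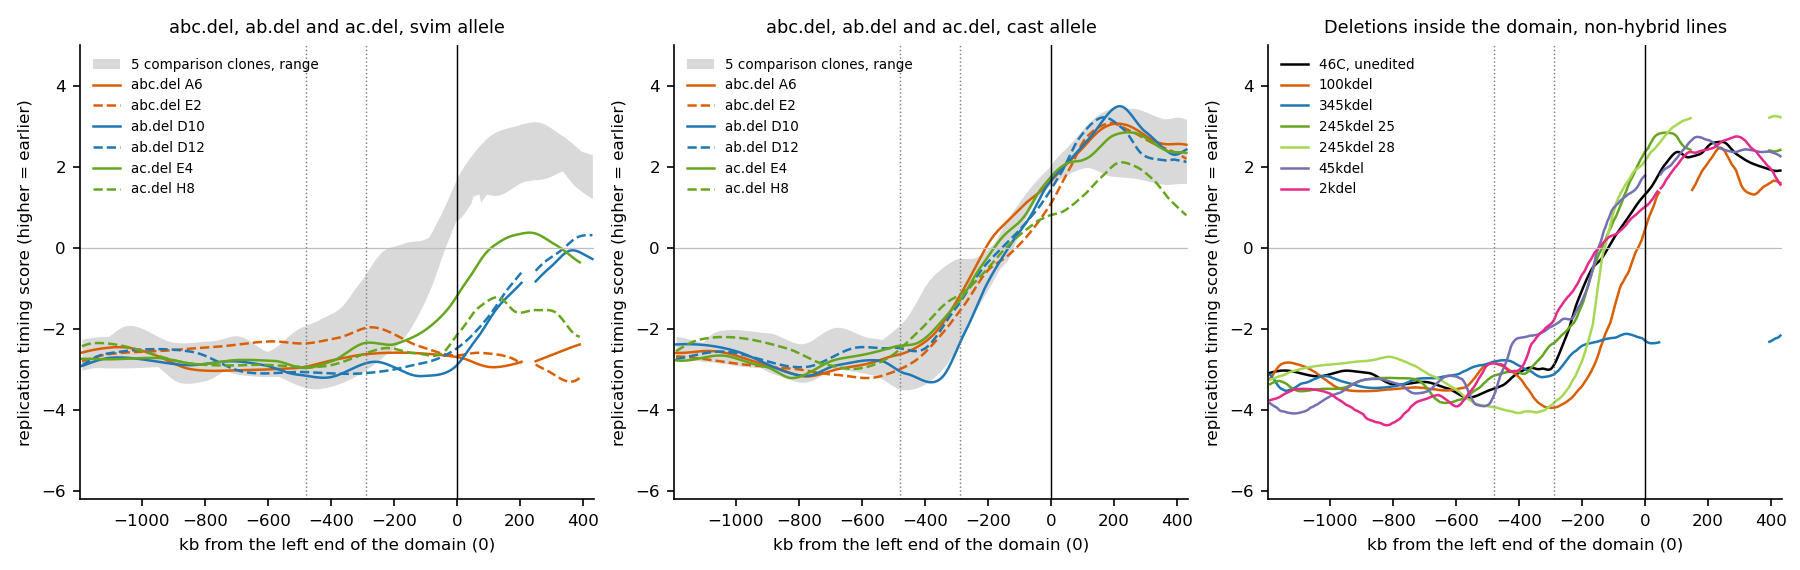
Replication timing score against distance in kb from the left end of the domain for the clones of abc.del, ab.del and ac.del on svim (left) and cast (middle), with the range of the 5 comparison clones in grey, and for non-hybrid deletions inside the domain with 46C (right). On svim all 6 clones lie below the grey band next to the domain, and the 345kdel line stays near -2.3 up to the domain. On cast the 6 clones rise with the band, but not all stay within it. In the cast window from 48100001, ab.del D10 and D12, abc.del E2 and ac.del H8 score 0.83, 0.78, 0.42 and 0.55. These lie below the lowest comparison clone at 0.99, while abc.del A6 and ac.del E4 lie within the band at 1.22 and 1.06.

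The non-hybrid deletions 345kdel and 100kdel went in the same direction without a call. In 345kdel, which removes chr16:48235964-48581356, the near segment scored -2.39 against -0.45 in 46C (difference -1.95 ± 0.53, adjusted p = 0.25, limma). In 100kdel, which removes chr16:48235964-48336419, it scored -2.20 (difference -1.75 ± 0.53, adjusted p = 0.55). In both the near segment fit has 1 residual degree of freedom, from 245kdel alone. The windows below all 6 other reference profiles ran from the domain to 48000001 in 345kdel, 190 kb, and to 47900001 in 100kdel, 290 kb. Over the chromosome 22.3% and 17.1% of windows were below them.

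The shape differed between these deletions. In 345kdel the flank was flat, with a slope of 0.28 per 100 kb and a score of -2.24 in the window that meets the domain. In 100kdel the rise was kept but shifted right, with a slope of 1.67 and a crossing 25 kb from the domain. In 245kdel, which removes chr16:48336437-48581357, the rise was in place, with near segments of -0.14 and -0.79 in clones 25 and 28 and crossings at 140 and 130 kb. This deletion shares its right end with 345kdel to within 1 base, and its near segments lay on either side of 46C.

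In hybrid cells the same 100kdel interval scored -1.60 and -1.34 on svim in clones B6 and C3, B6 just below the lowest comparison clone, and 0.26 and -0.02 on cast. Among the hybrid genotypes other than ab.del, abc.del, ac.del and those with an edit end in the flank, the latest on svim were 4kdel at -2.12 and -2.14 (difference -1.47 ± 0.45), 28kdel at -1.91 and a.del. The deletion 4kdel takes out chr16:48280115-48284009, which overlaps the left end of Dppa4. The earliest were 245kdel F9 at 0.21 (difference 0.87 ± 0.64), 4k.b.del at -0.58 and -0.38, and bc.del. On cast the latest were a.del, 4k.b.c.del at -1.18 and c.del, and the earliest were bc.del at 0.15 and 0.76, 245kdel at 0.40 and 18kdel at 0.03 and 0.47. None of these was called by limma.

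**Figure D5:**
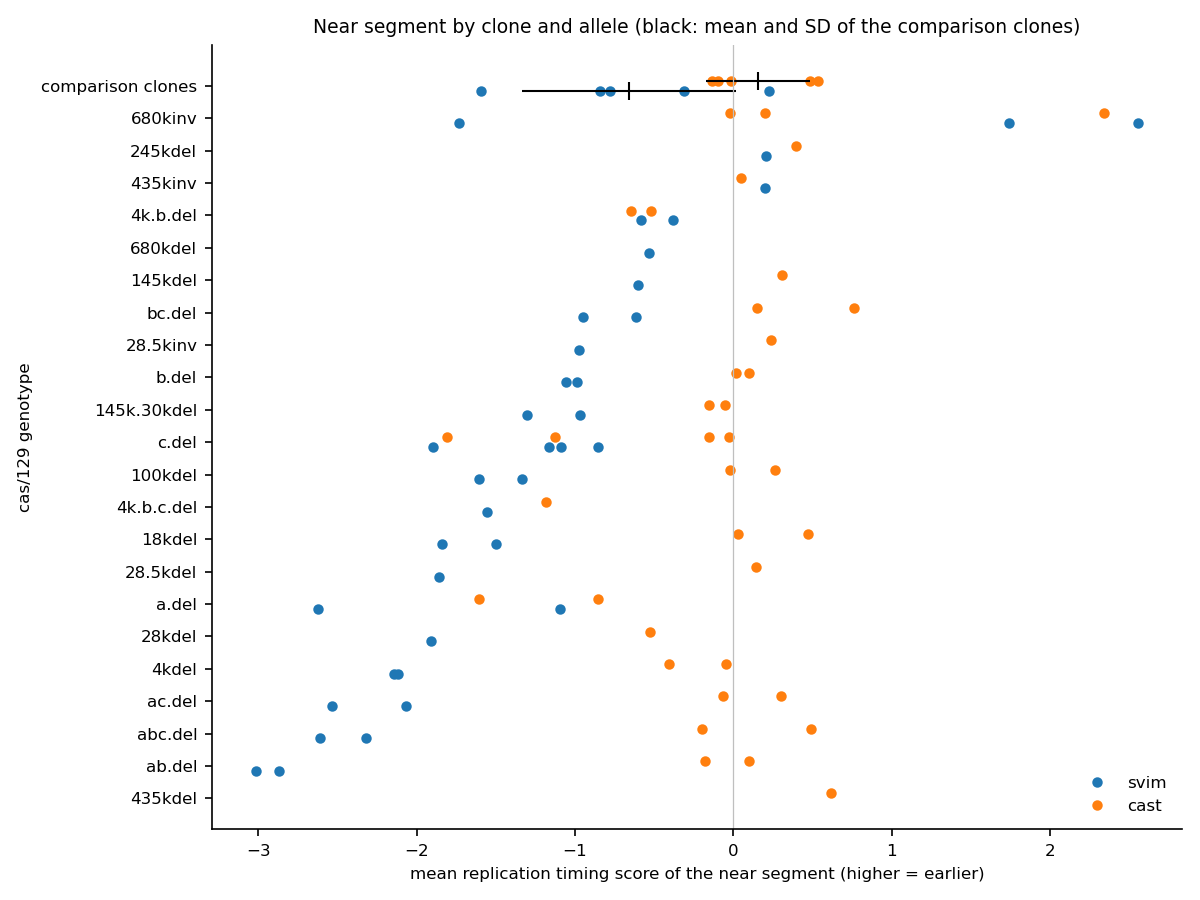
Mean replication timing score of the near segment in each hybrid mESC clone (points) by genotype and allele, ordered by the svim mean, with the 5 comparison clones at the top and their mean and SD in black. The svim points of ab.del, abc.del and ac.del lie below -2 while their cast points lie near 0, and the svim points of 680kinv run from -1.73 to 2.55. The svim points of 4kdel and of a.del G5 lie below -2 too.

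Within a clone, svim minus cast removes what the alleles of a library share. In the near segment it was -2.90 in ab.del, -2.61 in abc.del and -2.42 in ac.del, against -0.81 ± 0.43 in the comparison clones. Both clones of each genotype lay below all 5 comparison clones. With 2 against 5 clones the exact two-sided permutation test cannot go below p = 0.0476, which each reached. Adjusted over the 13 genotypes with at least 2 clones, it was 0.10.

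The same smallest p was reached in the near segment by 4kdel (-1.90), 18kdel (-1.92) and 4k.b.del, where the alleles were level (0.10; exact permutation p = 0.0476, adjusted 0.10 for each). So in 6 of 13 genotypes all clones lay outside the comparison range on the same side, 5 with svim later and 1 with the gap of the comparison clones closed. In 680kinv and a.del the clones lay outside it on opposite sides. In 4k.b.del this came with a cast allele of -0.52 and -0.65 rather than an early svim allele. In the middle segment ac.del (-0.87), bc.del (-0.92), 4kdel (-0.83) and 4k.b.del (0.10) reached the smallest p, against -0.41 ± 0.13 in the comparison clones. For each the exact permutation p was 0.0476, adjusted 0.15. In the far segment no genotype passed, the lowest adjusted exact permutation p being 0.77.

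The crossing point cannot fall below 0 kb, the domain's left end. On svim it lay there in both clones of ab.del, abc.del and ac.del, 107 kb to the right of the comparison mean (exact permutation p = 0.0952, adjusted 0.41 over 26 tests). With the crossing taken at a score of 1 the genotype minus comparison difference was -12 kb, and at a score of -1 it was -181 kb, against -107 kb at 0. In 4kdel and in 18kdel the svim crossing lay 0 and 5 kb from the domain. It lay at 0 kb in 28kdel 9, 28.5kdel A10, 4k.b.c.del G12 and a.del G5 too. In 435kinv C5 it also lay at 0 kb, but there the score as deposited fell rightwards. That near segment scored 0.20, with a slope of -0.57 per 100 kb, so the crossing does not mark a late flank. A svim crossing at the domain's left end was thus not particular to ab.del, abc.del and ac.del. On cast ab.del, abc.del, ac.del and 4kdel crossed between 115 and 210 kb, against 120 to 200 kb in the comparison clones. In a.del the cast crossing lay at 0 and 75 kb (exact permutation p = 0.0476, adjusted 0.41).

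In the profile titled NPC, from clone 100kdel C3, the flank was late throughout and did not rise to 0 anywhere. On svim the far, middle and near segments scored -4.44, -4.44 and -4.65 and the domain -4.29. On cast they scored -4.81, -4.89 and -4.17, and the domain -3.85. The highest flank position scored -3.91 on either allele. In mESC the same clone had scored -2.77, -3.03 and -1.34 on svim and -2.66, -2.72 and -0.02 on cast.

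Slopes over the near segment were -0.06 per 100 kb on svim and 0.24 on cast in the NPC profile, against 1.44 and 1.19 in mESC. Ranked within their own profile, the near segment stood at percentile 3.8 of chromosome 16 positions on svim and 17.2 on cast. In the 2 mESC libraries it stood at 49.5 and 53.8 on svim and at 63.8 and 60.9 on cast. This is 1 library with no replicate and no comparison clone in the same cells, and the clone carries a deletion, so no test was made. Of the 6 columns of the table that match no listed sample, 2 are titled NPC, and none of the 6 was analysed here.

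The v6.5 clones showed the flank in another background, with 1 profile each and no test. In 435kinv A4 the svim allele scored -3.98, -0.80 and 0.35 in the far, middle and near segments and the C57BL allele -3.43, -3.05 and -1.14. As deposited, the svim near segment fell rightwards as in 435kinv C5, from 1.38 in the window from 47900001 to -0.67 beside the domain. Its slope was -0.83 per 100 kb, against 1.57 on C57BL. Read in the rearranged order, it scored -0.33 instead of 0.35 and its slope was -0.08. In the middle segment, 18kdel H5 scored -2.25 on svim and -3.04 on C57BL, and 100kdel C6 -3.17 and -3.91. In the near segment 18kdel H5 scored 0.17 on svim and -0.98 on C57BL, and 100kdel C6 -2.04 and -2.06. The domain has 82 positions with values on C57BL in 18kdel H5 and 66 in 100kdel C6, against 86 on svim in each. The blanks of these deletions thus lie on C57BL, and in 100kdel C6 the near segment was about as late on the allele without blanks.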

How the data were processed

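Repli-seq libraries of early and late S-phase DNA from mESC, and from 1 profile titled NPC, were analysed as replication timing scores on chromosome 16. Per the submitters' processing notes, reads were handled with Bowtie2, SAMtools and bedtools on mm10; the deposited score's formula and smoothing are not stated there. The 6 columns that match no listed sample were not used. Repeat libraries were averaged by clone, and positions inside a compared deletion were left out. Windows of 50 kb needed 50% of their positions, and segments 10 positions. Each hybrid genotype was tested against 5 comparison clones and each non-hybrid one against 46C with limma 3.58.1 in R 4.3.3 (Benjamini-Hochberg over all windows and the 3 segments, threshold 0.05). Alleles and crossing points were compared by exact permutation. The named genotypes are those with an edit end in the flank or at the domain's left end, abc.del, ab.del and ac.del, any with a call, the comparison and reference profiles, and the 3 highest and lowest others per allele. The hybrid fit was tried on simulated windows, drawn independently of each other and with a common spread, which real neighbouring windows need not share. The non-hybrid fit was not tried on simulated data. Alternatives covered scaling, edit ends, first libraries, window size, crossing rule and each clone left out. The members and lists were chosen with earlier results of these data known. GC content and the sequence at the edit ends were not analysed here.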

Additional observations from a re-analysis of the deposited data

Results flagged for a closer look

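The svim slope of the near segment in comparison clone 24.5kinv 3, 0.458 score units per 100 kb, stood apart from the other 4 comparison clones, which lay between 1.18 and 1.31. Its gap to the nearest of them was 0.85 of the whole range of the 5, above Dixon's 95% critical value. In all, 20 sets of 4 or 5 clones were looked at this way, and chance flags about 1 in 20 such sets. The same clone was the earliest of the 5 in the middle segment on both alleles.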

How the results depend on the processing

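Of 47 results, 33 kept their direction and their side of the threshold (counts: within 1.5 times) under each alternative run for them. A result that was not called and stayed so counts as kept, which says little about how firm it is. The exact permutation tests with 2 clones cannot go below p = 0.0476 before adjustment, so they could hardly change sides. The ab.del svim near segment lost its call when columns were rescaled outside the region (-1.82) and when they were centred left of the flank (-1.75); these settings moved the median difference of all its windows from -0.10 to 0.34 and 0.43. That of abc.del was called under quantile normalization (-1.62). With each clone left out in turn, the svim near difference ran from -2.51 to -2.06 in ab.del, from -2.04 to -1.58 in abc.del and from -1.87 to -1.40 in ac.del, and the svim middle difference from 2.31 to 2.79 in 435kinv C5 and from 2.19 to 2.66 in 435kdel B8. Called later flank windows of ac.del, 2 as reported, were 0 when rescaled, 1 when centred, 1 in windows of 100 kb and 0 to 4 with a clone left out (0 without H8, 1 without 30kdel C2, 4 without 14kdel D11). In windows of 100 kb abc.del had 1 called flank window and 500kdel 1. The sign turned for uncalled 245kdel F9 on svim when centred (-0.16) and for the 350kinv middle segment when centred (-0.077) or without positions near edit ends (-0.11). The svim minus cast difference of 680kinv ran from -0.34 to 2.87 with a clone left out and was below 0 without B10 or without C5. For the losses and reversals the cause was not tested. A shorter far segment gave no call in any of 44 fits. No paired analysis was possible because the replicate numbers mark repeat libraries of 1 clone, which were averaged, and so pair nothing between genotypes; the alleles of a clone were compared within it. Depth is unknown, most genotypes are 1 or 2 clones, and the non-hybrid fits have 1 or 2 residual degrees of freedom, so a difference that was not called may still be real.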
